A study of Rattus norvegicus with 4 samples.

Results

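The 43 genes considered here code for proteins that carry out or steer pre-mRNA splicing: 12 SR proteins, 20 hnRNP proteins, 5 core spliceosome factors, 4 regulators of alternative splicing and the 2 DBHS proteins Sfpq and Nono. They were taken by gene symbol from tables of ribosome footprint counts. Of the 31038 rows, 42 carried one of these symbols. Hnrnpa0 had a row under neither its symbol nor a synonym and is not analysed here. All 42 genes passed the filter on low counts, so none was lost before testing.

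The footprints came from cultured rat myocardial cells labelled NRVM, in 2 libraries given a control siRNA (siNT) and 2 libraries given an siRNA against eIF3m (si3m), a subunit of the initiation complex eIF3. Translation was stalled with cycloheximide, and RNA was taken from the monosome and polysome fractions. Strain, siRNA dose and time after transfection are not given in the labels. On age the labels conflict: the N of NRVM usually denotes neonatal cells, but the protocol names embryonic heart as the source. The stage of the cells is therefore uncertain. The labels do not state that libraries of a group are independent cultures, so each p-value speaks only to the spread between libraries, which may be technical. Messenger RNA levels are not analysed here, so a change in footprints may be a change in message or in its translation, and fewer cells of a type cannot be told apart from less RNA per cell.

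In splicing, introns are removed from pre-mRNA by the spliceosome, which is built on each intron from small nuclear ribonucleoproteins and many further proteins. SR proteins carry domains rich in arginine and serine, bind exonic enhancers and recruit the splicing machinery, while many hnRNP proteins bind exonic or intronic silencers and oppose them, so the balance of both families sets which exons are kept. Several of these proteins also shuttle to the cytoplasm and take part in mRNA export, stability and translation, and in the heart they help set the isoforms of sarcomere and calcium-handling proteins.

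Total counts were 3924434 and 3835750 in siNT and 8687598 and 6726969 in si3m, so depth moved with the group. Values below are CPM, counts scaled by the TMM-adjusted library size, in which 1 deposited count was worth 0.118 to 0.254 CPM. Eif3m, the targeted gene, stood at 532 and 451 CPM in siNT and at 138 and 191 CPM in si3m (log2 fold change -1.59, SE 0.11, adjusted p = 3.41e-08; 0.0522 with robust quasi-likelihood). Defining markers of cardiomyocytes were nearly absent: Tnni3, Nppa and Myl7 had 0 counts in each library, Myh6 had 2 to 10, and 7 to 12 of the 18 markers listed had at most 6 counts in a library. Their summed level, held mainly by Atp2a2 and Casq2 and given in CPM of the library total, was 1219 and 1162 for siNT but 855 and 859 for si3m. The 6 that were tested did not move together: Atp2a2, Ttn and Pln were lower, Casq2 and Tnnt2 were higher, and Tnnc1 did not pass. For the 12 fibroblast markers this sum was 12570 and 12531 for siNT but 16635 and 16361 for si3m, and of 9 that were tested 8 were higher and Fn1 was lower. The fibroblast sum was held mainly by Col1a1, Col1a2 and Fn1. Tcf21, a defining fibroblast marker, had 0 counts in each library. Other fibroblast markers were also near the floor: Pdgfra had 4 to 18 counts in a library and Lum 0 to 16. Dcn, among the 8 higher, had 0 counts in both siNT libraries and 24 and 20 in si3m. Smooth muscle markers summed to 3239 and 3218 for siNT but 3566 and 3572 for si3m, where Acta2 was higher, Tagln was lower and the other 4 did not pass. Endothelial markers summed to 10.2 and 11.5 for siNT and 19.6 and 22.6 for si3m, with Cdh5 at 0 counts in each library. Most of that sum was Eng, at 26 and 22 counts in siNT and 140 and 126 in si3m. Vwf did not pass, and the other endothelial markers had too few counts to be tested. Macrophage and blood markers summed to 9.68 and 12 for siNT and 1.38 and 1.49 for si3m, with Aif1, Hba-a1 and Hbb at 0 counts. This fall was mostly that of Adgre1, the only one tested, at 24 and 34 counts in siNT and 4 and 0 in si3m. The part of these shifts in the results below was not tested.

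Footprints on the splicing genes went down more often than up after the eIF3m siRNA. Of 42 members, 16 were lower, 7 were higher and 19 did not pass (edgeR adjusted p under 0.05), so 23 passed in either direction. Of all 12672 tested genes 27.8% passed: 13.9% were lower and 14.0% were higher. Calls depend on abundance, and among the 7410 genes at least as abundant as the lowest member, 20.9% were lower and 18.4% higher. This lowest member had a mean of 15.8 CPM and the highest 675 CPM. The 7410 genes share only that floor and are not matched to the members in abundance. The members' median log2 fold change was -0.10, against 0.02 for all tested genes. Groups did not overlap for 31 members, 20 of them lower, where 63.9% of all tested genes did not overlap. The largest fall was 2.2-fold, in Srsf11, and the largest rise 1.52-fold, in Nono. The split shifted with scaling to 19 lower and 3 higher when libraries were scaled by total count alone, which moved all tested genes from 1757 lower and 1771 higher to 2217 lower and 1428 higher, and without si3m replicate 2 it was 16 lower and 4 higher.

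SR proteins held the largest share of lower members, at 7 of 12 with 2 higher and a median log2 of -0.21. The lower ones were Srsf1, Srsf2, Srsf6, Srsf10, Srsf11, Tra2a and Tra2b. The group takes in SR-like proteins such as Srsf11 and the Tra2 paralogs, so its share depends on where the family is drawn. The same holds for the hnRNP group: Ptbp1 (hnRNP I), which was higher, is counted with the regulators of alternative splicing. Srsf3 and Srsf7 were higher, and Srsf4, Srsf5 and Srsf9 did not pass. Of 19 hnRNP proteins, 6 were lower and 3 higher, with a median of -0.02 that moved just above 0 with upper quartile scaling, and of 5 core spliceosome factors only U2af2 was lower, with a median of -0.13. The difference between these groups was not tested. SR footprints summed to 3240 and 3380 CPM in siNT and to 2854 and 2806 CPM in si3m. hnRNP footprints summed to 4418 and 4388 CPM in siNT and 4220 and 4239 CPM in si3m. The sums of the 5 core factors were 731 and 724 CPM in siNT and 716 and 695 CPM in si3m. With TMM scaling, each of the 3 sums was lower in both si3m libraries than in both siNT libraries.

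**Figure D1:**
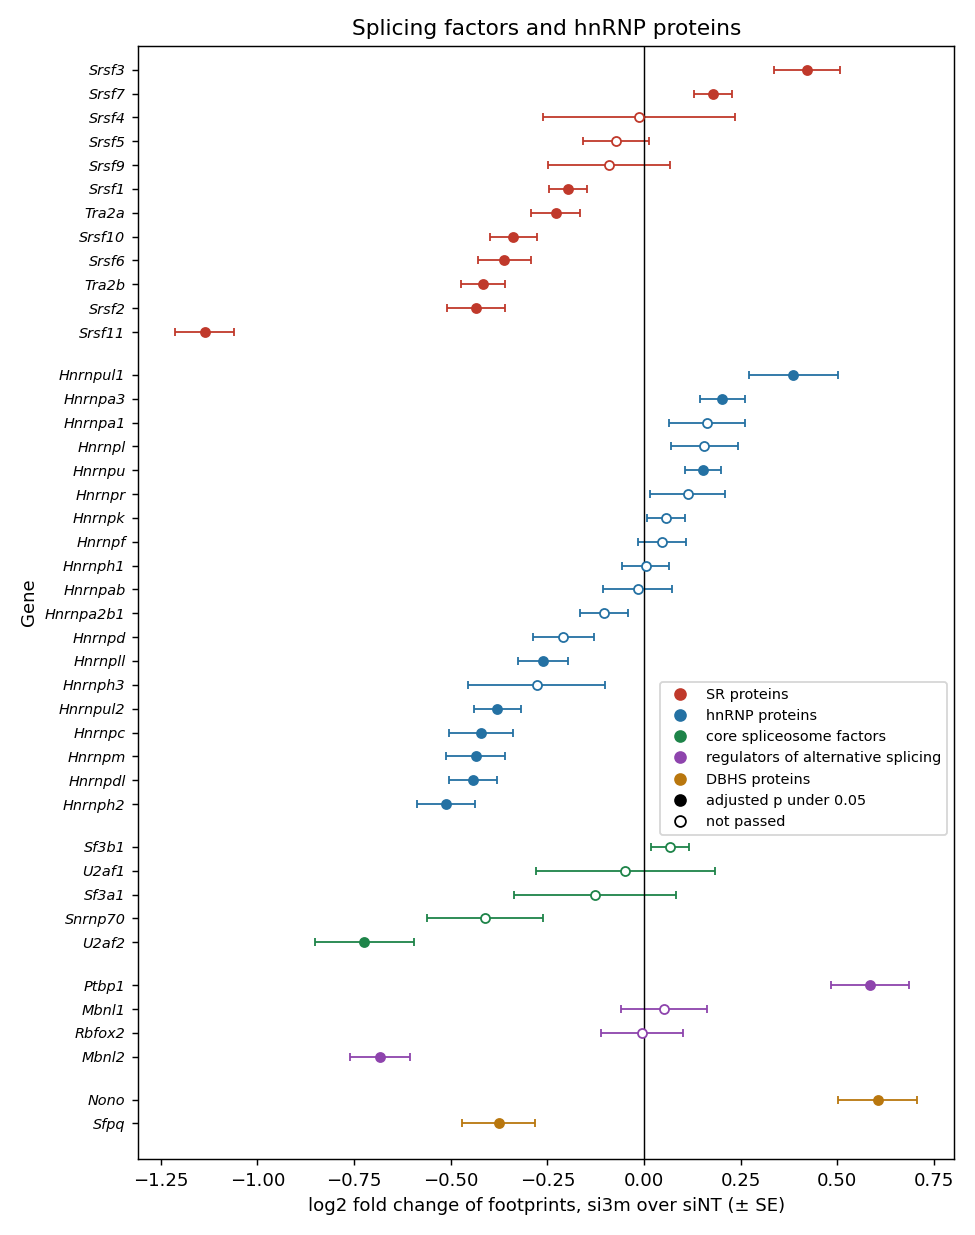
Log2 fold change (si3m over siNT, x axis) of each of 42 genes (y axis), grouped by role, with its standard error; filled points passed the adjusted p of 0.05 and open points did not. Of the 12 SR proteins 7 lie to the left as filled points, Srsf11 farthest at -1.14, and Nono (0.60) and Ptbp1 (0.59) lie farthest to the right.

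Upstream sequences are shown for the 3 largest falls and 3 largest rises that have a promoter window in the RefSeq table, since these genes span the range of the response. RefSeq windows were found for 38 of the 42 genes (43 windows, with a few genes having alternative starts), on the assembly GRCr8, which is not the build of the count files. U2af2, Tra2a, Hnrnpll and Rbfox2 had none. Each run gives the 250 bases before the annotated start, 5′ to 3′, with the CCAAT box (CCAAT) and the GC box (GGGCGG) in capitals on either strand. The windows are Srsf11 (chr2:249760259-249760508, minus strand), Mbnl2 (the first of 2 windows, chr15:103791938-103792187, plus strand), Hnrnph2 (chrX:102073999-102074248, plus strand), Nono (chrX:70593866-70594115, plus strand), Ptbp1 (chr7:10502958-10503207, minus strand) and Srsf3 (chr20:7093335-7093584, plus strand).
Srsf11: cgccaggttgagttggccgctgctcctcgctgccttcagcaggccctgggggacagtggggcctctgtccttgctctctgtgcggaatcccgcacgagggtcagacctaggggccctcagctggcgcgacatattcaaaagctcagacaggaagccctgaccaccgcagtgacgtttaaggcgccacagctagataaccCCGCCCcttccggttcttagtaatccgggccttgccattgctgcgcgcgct
Mbnl2: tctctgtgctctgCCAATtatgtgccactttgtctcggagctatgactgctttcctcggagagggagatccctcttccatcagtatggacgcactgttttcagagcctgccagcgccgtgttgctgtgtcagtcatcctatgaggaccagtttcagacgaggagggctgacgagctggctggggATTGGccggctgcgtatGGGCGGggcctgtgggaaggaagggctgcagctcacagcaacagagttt
Hnrnph2: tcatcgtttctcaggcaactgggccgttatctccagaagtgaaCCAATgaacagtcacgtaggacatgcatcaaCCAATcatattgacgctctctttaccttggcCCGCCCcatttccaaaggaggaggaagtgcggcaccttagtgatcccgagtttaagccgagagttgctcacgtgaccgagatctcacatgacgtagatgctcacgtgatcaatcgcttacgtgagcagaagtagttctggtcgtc
Nono: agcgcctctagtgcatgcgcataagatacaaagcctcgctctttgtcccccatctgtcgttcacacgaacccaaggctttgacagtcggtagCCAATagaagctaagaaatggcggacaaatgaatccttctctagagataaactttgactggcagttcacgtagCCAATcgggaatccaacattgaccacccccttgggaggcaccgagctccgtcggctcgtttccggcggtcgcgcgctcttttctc
Ptbp1: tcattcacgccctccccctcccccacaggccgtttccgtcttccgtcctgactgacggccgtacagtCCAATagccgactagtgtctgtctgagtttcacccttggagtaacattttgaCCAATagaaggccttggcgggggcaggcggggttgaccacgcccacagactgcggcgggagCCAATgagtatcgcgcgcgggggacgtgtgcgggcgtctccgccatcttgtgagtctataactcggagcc
Srsf3: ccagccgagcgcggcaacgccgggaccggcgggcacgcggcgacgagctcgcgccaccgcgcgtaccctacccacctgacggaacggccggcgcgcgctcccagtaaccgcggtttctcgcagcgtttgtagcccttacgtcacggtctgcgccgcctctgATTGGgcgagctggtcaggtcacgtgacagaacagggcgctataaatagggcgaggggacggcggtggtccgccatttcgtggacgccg

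The 3 lower genes each hold 1 GC box and the 3 higher genes none, whereas CCAAT boxes stand in both sets: 3 in Ptbp1, 2 each in Nono, Mbnl2 and Hnrnph2, 1 in Srsf3 and 0 in Srsf11. Over all windows of members, the CCAAT box was present in 26 of 43 (60.5%), against 34.0% of the 33469 windows in the table, and the GC box in 30 of 43 (69.8%), against 30.5%. The comparison windows were not limited to tested or equally abundant genes. Whether these shares are particular to splicing genes was not tested. By call, the CCAAT box was in 13 of 16 windows of lower genes, 5 of 7 of higher genes and 8 of 20 of those that did not pass. The GC box was in 11 of 16, 4 of 7 and 15 of 20 windows in the same order. The TATA box (TATAAA) was in 6 of 43 windows (14.0%, against 12.9% of all) and the E box (CACGTG) in 5 of 43 (11.6%, against 5.59%), both searched on either strand. Srsf3 holds both a TATA box and an E box, and Hnrnph2 holds the palindromic E box 2 times. These are matches of letters in a window, and nothing about binding was measured.

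Among the SR proteins the largest change was in Srsf11, an SR-like protein of the early spliceosome. It stood at 299 and 341 CPM in siNT and at 154 and 136 CPM in si3m. Both si3m values lay below both siNT values, a 2.2-fold fall (log2 -1.14, SE 0.076, adjusted p = 1.95e-08) that passed in each of the 14 alternatives.

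Srsf2, a classical SR protein that stays in the nucleus, had 169 and 174 CPM in siNT and 127 and 127 CPM in si3m (log2 -0.44, SE 0.075, adjusted p = 4.06e-04). Tra2b, a sequence-specific activator of exon inclusion, had 367 and 371 CPM in siNT and 281 and 272 CPM in si3m (log2 -0.42, SE 0.056, adjusted p = 4.20e-05). Its paralog Tra2a fell less, from 264 and 294 CPM to 235 and 241 CPM (log2 -0.23, adjusted p = 0.0132). The call for Tra2a was lost without siNT replicate 2 (adjusted p = 0.172) and without si3m replicate 1 (0.0696). Srsf6 fell from 330 and 372 CPM to 286 and 260 CPM (log2 -0.36, adjusted p = 9.66e-04), with the groups apart. Srsf10, whose dephosphorylated form represses splicing in mitosis and heat shock, fell from 272 and 297 CPM to 227 and 224 CPM (log2 -0.34, adjusted p = 5.98e-04).

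Srsf1, the SR protein with a well-known role in cardiac splicing and in translation, had 716 and 678 CPM in siNT and 605 and 613 CPM in si3m. This small fall of 1.15-fold (log2 -0.20, SE 0.049, adjusted p = 0.00735) passed in each alternative, with adjusted p up to 0.0482. In the GRCr8 annotation Srsf1 overlaps Vezf1, whose own row fell further, from 950 and 954 deposited counts to 776 and 610 (log2 -1.37, adjusted p = 1.13e-09). How reads in the overlap were assigned is not given in the sources used here, so the Srsf1 value is uncertain.

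Srsf3 and Srsf7, closely related SR proteins with a single RNA recognition motif that also act as adaptors for mRNA export, went the other way. Srsf3 had 113 and 103 CPM in siNT and 148 and 141 CPM in si3m, a 1.34-fold rise (log2 0.42, SE 0.085, adjusted p = 0.00156). Srsf7 had 531 and 547 CPM in siNT and 611 and 609 CPM in si3m (log2 0.18, SE 0.049, adjusted p = 0.0130). Groups of both genes were apart. With total count scaling the Srsf7 rise did not pass (log2 0.10, adjusted p = 0.173), whereas that of Srsf3 did.

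The other 3 SR proteins did not pass, and their groups overlapped. Srsf5 had 126 and 142 CPM in siNT and 128 and 127 CPM in si3m (log2 -0.07). Srsf4 and Srsf9 had the fewest footprints of the family, at 13.9 to 17.6 and 38.4 to 44.2 CPM over the 4 libraries. Their standard errors of 0.25 and 0.16 on the log2 scale were the widest among SR proteins, so changes of the size seen in Srsf2 could not be resolved for Srsf4.

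**Figure D2:**
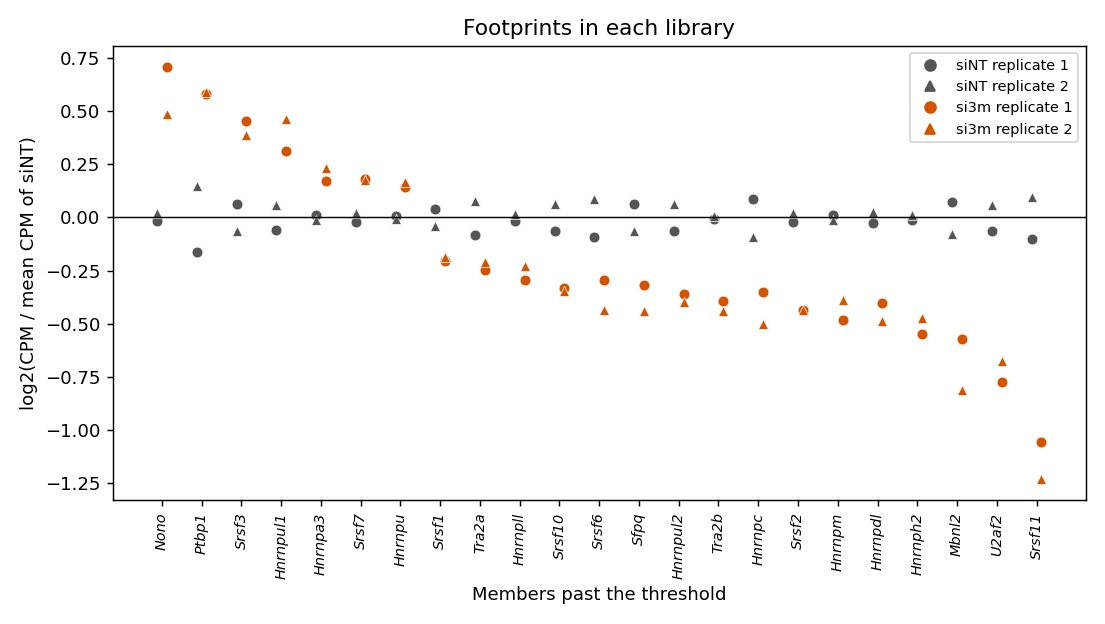
Footprints of the 23 genes past the threshold (x axis, in order of fold change) as log2 of CPM over the siNT mean (y axis), 1 point per library, circles for replicate 1 and triangles for replicate 2, siNT in grey and si3m in orange. The groups do not overlap for any of these 23 genes, and Srsf11 stands lowest in both si3m libraries. The genes were chosen by the test on the same libraries, so this separation adds no support. Groups did not overlap for 63.9% of all tested genes.

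Among hnRNP proteins, 6 were lower. Hnrnph2, which binds runs of guanines, had 177 and 180 CPM in siNT and 122 and 129 CPM in si3m (1.43-fold lower, log2 -0.51, SE 0.075, adjusted p = 9.93e-05). Its autosomal paralog Hnrnph1 had 231 and 226 CPM in siNT and 233 and 226 CPM in si3m (log2 0.00, SE 0.060), with overlapping groups. Hnrnph3, the third of this set, was low at 33.9 and 41.2 CPM and at 29.2 and 32.8 CPM (log2 -0.28, SE 0.18) and did not pass, and neither did Hnrnpf at 315 and 341 against 351 and 326 CPM (log2 0.05).

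Hnrnpdl, an AU-rich element binding protein, fell from 256 and 265 CPM to 198 and 186 CPM (log2 -0.44, SE 0.062, adjusted p = 6.71e-05). Its relative Hnrnpd (AUF1), a factor of mRNA decay, had 206 and 180 CPM in siNT and 160 and 174 CPM in si3m (log2 -0.21, adjusted p = 0.0606). Groups of Hnrnpd were apart, and it passed in 8 of 14 alternatives, including the replicate block (adjusted p = 0.0403). Hnrnpab, of the same subfamily, had 147 and 124 CPM against 135 and 133 CPM (log2 -0.02), with overlapping groups.

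Hnrnpm fell from 173 and 170 CPM to 123 and 131 CPM (log2 -0.44, SE 0.077, adjusted p = 5.02e-04). Hnrnpc, which coats nascent transcripts and binds uridine tracts, fell from 191 and 168 CPM to 141 and 127 CPM (log2 -0.42, SE 0.084, adjusted p = 0.00137). Hnrnpll, known for CD45 splicing in lymphocytes, fell from 219 and 224 CPM to 181 and 189 CPM (log2 -0.26, adjusted p = 0.00640). This last call was lost without si3m replicate 1 (adjusted p = 0.0791). Its paralog Hnrnpl had 137 and 147 CPM in siNT and 147 and 170 CPM in si3m (log2 0.16, adjusted p = 0.201).

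The U family split. Hnrnpul2 fell from 327 and 356 CPM to 266 and 259 CPM (log2 -0.38, SE 0.060, adjusted p = 2.15e-04). Hnrnpul1 rose from 65.7 and 71.1 CPM to 84.8 and 94.4 CPM (1.31-fold, log2 0.39, SE 0.11, adjusted p = 0.0193). Hnrnpu, the nuclear scaffold protein SAF-A, rose slightly from 643 and 637 CPM to 705 and 717 CPM (log2 0.15, adjusted p = 0.0226). Neither rise was stable: both were lost with total count scaling (adjusted p = 0.0575 for Hnrnpul1 and 0.294 for Hnrnpu) and without si3m replicate 2 (0.173 and 0.0978). Hnrnpul1 was also lost in DESeq2 (0.0649) and without siNT replicate 1 (0.0558).

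In the A/B family, whose members bind UAG-like motifs and shuttle out of the nucleus, changes were small. Hnrnpa3 rose from 229 and 226 CPM to 256 and 267 CPM (log2 0.20, SE 0.058, adjusted p = 0.0165). That call was lost in DESeq2 (adjusted p = 0.100), with total count scaling (0.139), with counts thinned to equal depth (0.0505) and without si3m replicate 2 (0.105). Hnrnpa1 had 181 and 137 CPM in siNT and 177 and 179 CPM in si3m (log2 0.16, adjusted p = 0.242), so the siNT libraries lay on either side of the si3m values. Without siNT replicate 1 it passed (log2 0.38, adjusted p = 7.93e-04). Hnrnpa2b1 had 227 and 228 CPM in siNT and 217 and 206 CPM in si3m (log2 -0.10, adjusted p = 0.238; lower with total count scaling, 0.0439). Genes of this family have many processed copies in mammalian genomes, and their reads may be shared with them.

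Hnrnpr, a close relative of the hnRNP Syncrip, had 99.1 and 91.0 CPM in siNT and 102 and 103 CPM in si3m (log2 0.11) and did not pass. Hnrnpk, a poly(C)-binding protein active in transcription and translation, had 561 and 574 CPM in siNT and 592 and 589 CPM in si3m (log2 0.06, adjusted p = 0.417). The gene for miR-7a-1 lies inside Hnrnpk in the GRCr8 annotation, and it is shown because its row moved while that of its host did not pass. Its mature strands from RefSeq are given 5′ to 3′ with the seed, bases 2 to 8, in capitals.
rno-miR-7a-5p: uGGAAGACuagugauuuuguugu
rno-miR-7a-1-3p: aCAACAAAucacagucugccau

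The row of this microRNA gene, named Mir7a-1 in the count tables, had 5648 and 5832 deposited counts in siNT and 2650 and 1992 in si3m (log2 -2.22, adjusted p = 9.96e-15). Hnrnpk itself had 2254 and 2259 deposited counts in siNT and 5030 and 3809 in si3m. Other copies of the gene share the mature miR-7a, and a microRNA is not translated, so that row is no footprint of a coding sequence. In all, 9 of the 42 genes overlap another gene with its own row: Srsf1, Hnrnpa1, Hnrnpab, Hnrnpdl, Hnrnph3, Hnrnpk, Hnrnpl, Hnrnpm and Sf3a1. Their counts are uncertain. Among the other 33 members 13 were lower (39.4%, against 13.9% of all tested genes) and 7 higher (21.2%, against 14.0%).

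Of the core factors 1 passed. U2af2, the large subunit of U2AF that binds the polypyrimidine tract before the 3′ splice site, had 74.7 and 81.3 CPM in siNT and 45.7 and 48.9 CPM in si3m. This 1.65-fold fall (log2 -0.72, SE 0.13, adjusted p = 4.96e-04) passed in each alternative. Its small subunit U2af1, which reads the AG at the 3′ splice site, had 17.4 and 25.4 CPM against 21.0 and 20.4 CPM (log2 -0.05, SE 0.23), with overlapping groups and few reads.

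Snrnp70, the U1 protein that helps recognise the 5′ splice site, had 57.7 and 49.3 CPM in siNT and 41.7 and 38.7 CPM in si3m (log2 -0.41, SE 0.15, adjusted p = 0.0531). Its groups were apart, and it passed in 7 of 14 alternatives, among them the replicate block (adjusted p = 0.0466). Sf3b1, the branch-site factor of the U2 particle, had 540 and 539 CPM in siNT and 571 and 560 CPM in si3m (log2 0.07, SE 0.050, adjusted p = 0.342). Sf3a1 was low and scattered, at 40.8 and 28.5 CPM and at 36.5 and 26.6 CPM (log2 -0.13, SE 0.21). The count of higher core factors was 0 in edgeR, 0 at an unadjusted p under 0.05 and 0 in DESeq2.

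The regulators of alternative splicing moved apart from each other. Ptbp1 (hnRNP I), a repressor of exons that are included as muscle and neurons mature, had 83.6 and 104 CPM in siNT and 140 and 141 CPM in si3m, a 1.5-fold rise (log2 0.59, SE 0.10, adjusted p = 4.07e-04). Mbnl2, a muscleblind protein that promotes mature splicing patterns, had 309 and 278 CPM in siNT and 197 and 167 CPM in si3m, a 1.61-fold fall (log2 -0.68, SE 0.078, adjusted p = 7.72e-06). Both calls held in each alternative and both pairs of groups were apart. Mbnl1 had 83.1 and 76.7 CPM in siNT and 79.6 and 86.3 CPM in si3m (log2 0.05, SE 0.11), and Rbfox2, which binds UGCAUG near exons, had 81.1 and 83.6 CPM against 81.0 and 83.2 CPM (log2 -0.00, SE 0.11). Groups of both genes overlapped.

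Sfpq and Nono form heterodimers in nuclear paraspeckles and act in splicing, transcription and DNA repair, and here they changed in opposite directions. Nono had 82.1 and 84.3 CPM in siNT and 136 and 117 CPM in si3m (1.52-fold higher, log2 0.60, SE 0.10, adjusted p = 3.47e-04). Sfpq had 126 and 116 CPM in siNT and 97.0 and 89.4 CPM in si3m (log2 -0.38, SE 0.095, adjusted p = 0.00777). The Sfpq call was lost without si3m replicate 2 (adjusted p = 0.0755).

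Ratios of related genes within a library need no scaling between libraries. For 10 pairs, chosen after the values were seen, the ratio of deposited counts was formed in each library. With 2 libraries per group an exact permutation test cannot go below p = 0.333, so the ratios are given without a test. Nono over Sfpq was 0.650 and 0.728 in siNT and 1.40 and 1.30 in si3m, so the gene with the higher count changed. Mbnl2 over Mbnl1 was 3.71 and 3.62 in siNT and 2.48 and 1.94 in si3m. Hnrnpul1 over Hnrnpul2 was 0.201 and 0.1997 in siNT and 0.319 and 0.364 in si3m. Hnrnph2 over Hnrnph1 went from 0.767 and 0.798 to 0.525 and 0.571, U2af2 over U2af1 from 4.29 and 3.20 to 2.18 and 2.39, and Hnrnpll over Hnrnpl from 1.60 and 1.53 to 1.23 and 1.11. Srsf7 over Srsf1 went from 0.741 and 0.807 to 1.01 and 0.994. The remaining ratios, Tra2b over Tra2a, Hnrnpdl over Hnrnpd and Hnrnpa1 over Hnrnpa2b1, also did not overlap between groups. For these 3 and for U2af2 over U2af1 the gap between groups was smaller than the spread within siNT.

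**Figure D3:**
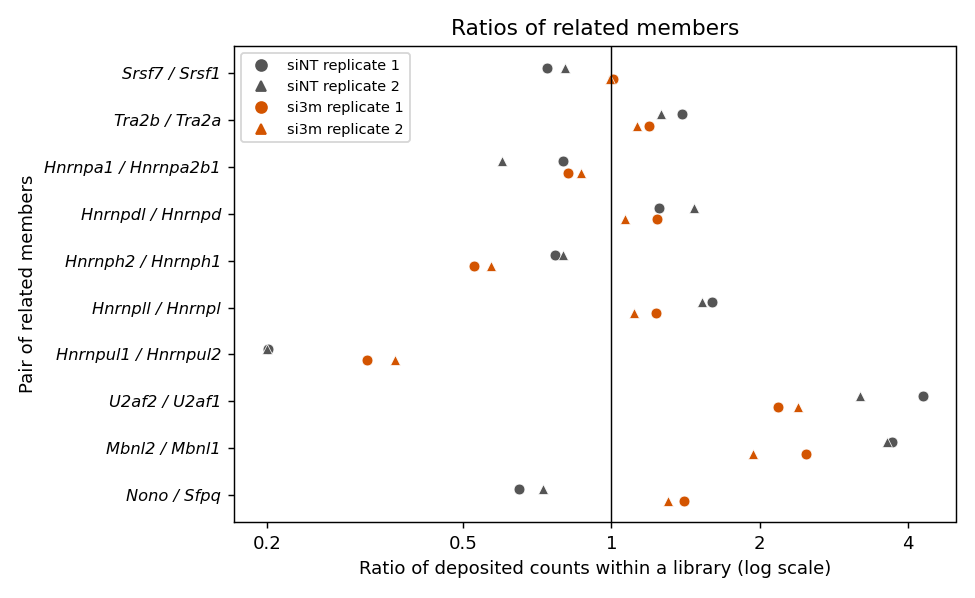
Ratio of deposited counts within a library (x axis, log scale) for 10 pairs of related genes (y axis), 1 point per library, siNT in grey and si3m in orange. Nono over Sfpq crosses the line at 1, from 0.650 and 0.728 in siNT to 1.40 and 1.30 in si3m.

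Other genes of the splicing pathway were taken from lists of textbook membership. Of 126 tested genes outside the 43, 22 were lower (17.5%, against 13.9% of all tested genes) and 18 higher (14.3%, against 14.0%), with a median log2 of -0.00. Among the 7410 genes at least as abundant as the lowest member, 20.9% were lower and 18.4% higher. Some of the 126 lie below that abundance. With DESeq2, 17 were lower and 11 higher. Counts that DESeq2 lowered by more than 1.5 times were those of higher genes among the further U1 and U2 proteins (1), the tri-snRNP (0) and the helicases (1), and of lower genes among the hnRNP-like proteins (3) and in nonsense-mediated decay (1). In the small Sm proteins, which form the ring of most spliceosomal particles, 3 of 7 rose and 1 fell. DESeq2 had 2 of the 7 higher and 1 lower. Snrpd1 rose from 8.96 and 12.7 CPM to 24.5 and 26.3 CPM (log2 1.23, SE 0.25, adjusted p = 0.00151). Snrpd3 rose by 0.85 on the log2 scale, and Snrpb was lower at -0.59. Of 7 LSm proteins, 2 rose, Lsm3 (log2 0.74) and Lsm5 (log2 1.01), and the other 5 did not pass. Among 16 further U1 and U2 proteins 3 were higher and 2 lower, with Snrpa1, the U2 A′ protein, rising from 15.4 and 21.8 CPM to 47.1 and 49.8 CPM (log2 1.38, SE 0.19, adjusted p = 6.41e-05), Luc7l2 at -0.46 and Sf3b6 at -0.57.

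In the tri-snRNP list 3 of 14 were lower (21.4%) and 1 higher (7.14%). Of all tested genes, 13.9% were lower and 14.0% higher, and 20.9% and 18.4% of those at least as abundant as the lowest member. Prpf8, the scaffold at the catalytic centre, had 655 and 643 CPM in siNT and 359 and 363 CPM in si3m (1.80-fold lower, log2 -0.85, SE 0.051, adjusted p = 6.31e-09). Snrnp200, the helicase that unwinds U4 from U6, was lower at log2 -0.45 and Prpf6 at -0.72. The NTC list, of proteins that join at activation, had 0 calls among 12 genes in edgeR, 1 gene at an unadjusted p under 0.05 and 0 calls in DESeq2. Helicases counted 2 of 9 higher, Ddx39b (log2 0.48) and Dhx15 (log2 0.20), the latter lost in DESeq2 (adjusted p = 0.0553), with total count scaling (0.131) and without si3m replicate 2 (0.0769). In the exon junction list Rnps1 rose (log2 0.63) and Srrm1 fell (log2 -0.35; lost without siNT replicate 2, 0.0984, and without either si3m library, 0.0665 and 0.0844), and the other 7 did not pass.

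Kinases that phosphorylate SR proteins were lower where they passed, 3 of 8 listed with importers (37.5%). For this list and those that follow, 13.9% of all tested genes were lower and 14.0% higher. Among the 7410 genes at least as abundant as the lowest member, 20.9% were lower and 18.4% higher. In lists this small, a few genes set each share. Clk1, which phosphorylates SR proteins in nuclear speckles, had 1542 and 1589 CPM in siNT and 842 and 864 CPM in si3m, a 1.83-fold fall (log2 -0.88, SE 0.040, adjusted p = 1.84e-10). Its relative Clk4 fell from 43.3 and 54.9 CPM to 24.3 and 28.8 CPM (log2 -0.89, SE 0.18, adjusted p = 0.00141), and Prpf4b was lower at -0.42. Further hnRNP-like proteins went both ways, 6 of 18 higher and 5 lower, with Ewsr1 at 0.35, Tardbp at 0.40 and Syncrip at -0.29. In DESeq2, 4 of the 18 were higher and 3 lower. Of 16 tested further regulators 4 were lower and 12 did not pass. Among them Ptbp2, the neural paralog of Ptbp1, fell from 79.6 and 78.8 CPM to 50.9 and 43.6 CPM (log2 -0.74, SE 0.13, adjusted p = 4.81e-04), and Khdrbs1 and Rbm39 had log2 values of -0.57 and -0.28. In the list of nonsense-mediated decay, the pathway that degrades the poison-exon isoforms through which many SR genes limit their own level, 3 of 10 passed as lower, among them Smg1 (log2 -0.16) and Smg6 (log2 -0.55). Both of these calls were lost in at least 3 alternatives, Smg6 without siNT replicate 2 (adjusted p = 0.315), without si3m replicate 1 (0.246) or replicate 2 (0.0630) and in DESeq2 (0.0911), and Smg1 without si3m replicate 1 (0.253) or replicate 2 (0.0639) and with no filter on low counts (0.0557).

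**Figure D4:**
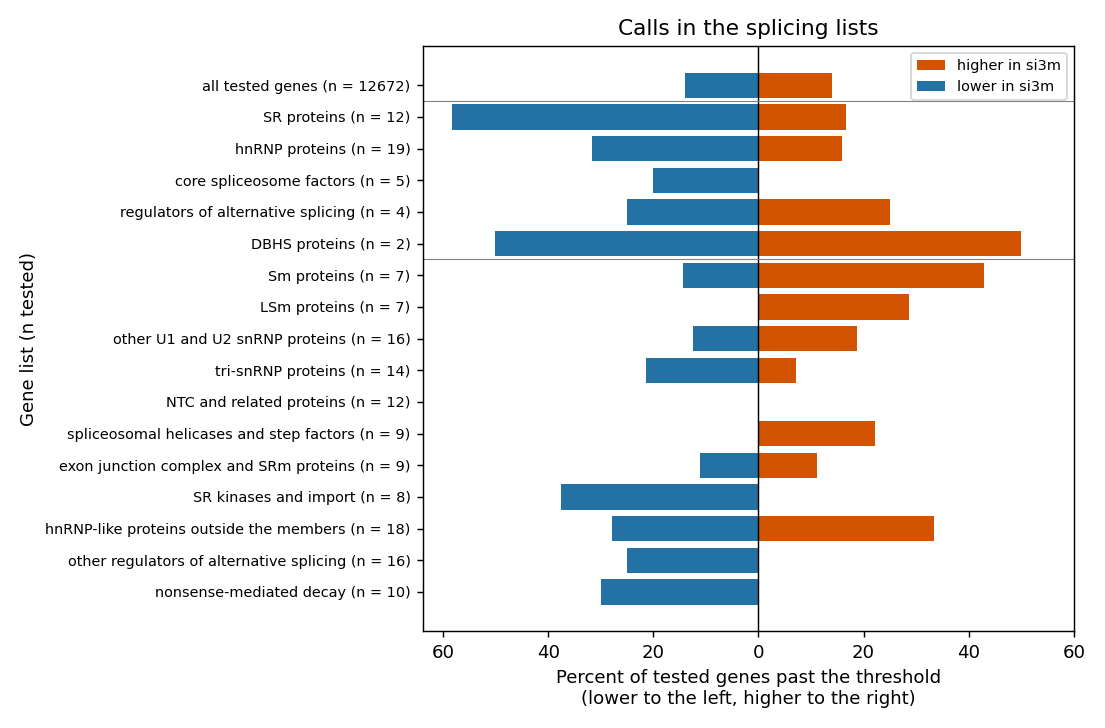
Percent of tested genes past the adjusted p of 0.05 (x axis), lower in si3m to the left and higher to the right, for all tested genes, the 5 groups of members and the other splicing lists (y axis, with the number tested). SR proteins, with SR-like members included, have the longest bar to the left at 58.3%, against 13.9% of all tested genes. Sm proteins reach 42.9% to the right, against 14.0%, which is 3 of 7 genes, and 2 of 7 were higher in DESeq2. Among the 7410 genes at least as abundant as the lowest member, 20.9% were lower and 18.4% higher.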

How the data were processed

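Ribosome footprints were counted per gene in 4 libraries, 2 per group. The files hold whole-number counts as deposited, with no normalization, and 94.9% to 97.3% of the counts above 0 in a library are even. If each fragment was counted as 2 reads, there were fewer fragments than deposited counts. The sources used here do not state this. The main test used undivided counts. With counts divided by 2, 18 members were lower and 7 higher. Per the submitters' processing notes, the build was rn6 and the tools were featureCounts, HISAT2 2.2.1, Trimmomatic 0.40, DESeq2 and limma, with no roles stated. The annotation, how strand was handled and how multi-mapping reads were counted: not given in the sources used here.

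The main test was edgeR's two-sided quasi-likelihood test (version 4.0.16, R 4.3.3; TMM, filterByExpr at minimum count 10) over 12672 genes, with Benjamini-Hochberg adjustment over all of them and a threshold of 0.05. The standard error is the size of the log2 fold change over the root of the F statistic. The fit was also run on counts simulated with the same dispersion for every gene. Those counts lacked the evenness of the deposited ones, so that run does not show how often the test errs on these data. Between replicates the median chi-square, on counts divided by 2, was 1.40 (siNT) and 1.48 (si3m) times that of counting noise, so each library was kept as its own sample. The 14 alternatives were DESeq2 1.42.0, scaling by total count or by upper quartile, omission of the low-count filter, at least 50 counts in 2 libraries, counts divided by 2, counts thinned to 3835750 per library, robust quasi-likelihood, the replicate block, no microRNA rows and leaving out each library.

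Members and lists were chosen with earlier results of these data known. All members are named, and from each other list up to 3 genes past the threshold with the smallest p, of which 1 is not reported here. Of 230 list entries 228 matched a row, 1 by a synonym. Overlaps of genes come from RefSeq on GRCr8.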

Additional observations from a re-analysis of the deposited data

How the results depend on the processing

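Over the 14 alternatives none of the 23 members that passed reversed its direction, and 16 of the 23 calls held in each. Calls were lost for 7 genes (15 cases) and gained for 4 genes that had not passed (17 cases). With total count scaling, higher members numbered 3 in all, 1 among SR proteins and 0 among hnRNP proteins, and lower core factors 2; DESeq2 had 1 higher hnRNP protein. Lower core factors also numbered 2, with Snrnp70 added to U2af2, with at least 50 counts in 2 libraries, counts divided by 2, robust quasi-likelihood and no microRNA rows. Leaving out each library in turn gave 4 to 7 higher members, 14 to 17 lower members, 0 to 3 higher hnRNP proteins (0 without si3m replicate 2) and 1 to 2 lower core factors (2 without siNT replicate 2). Where 1 library remained in a group, it was assumed to vary like the others.

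Replicate numbers were not shown to pair the libraries (correlation of same-numbered deviations -0.0191 over 12672 genes). With the replicate block 18 members were lower and 7 higher, and 2 core factors were lower; genes past the threshold numbered 3694 against 3528. Depth limits the low genes: Srsf4, U2af1 and Sf3a1 had standard errors of 0.21 to 0.25, against 0.047 for Hnrnpu.

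The median of hnRNP proteins lay near 0 and turned to 0.01 without a filter, 0.00 under upper quartile scaling, 0.00 without si3m replicate 2, -0.10 with total count scaling and -0.09 without siNT replicate 2. That of SR proteins lay between -0.29 and -0.19 in every alternative.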
